A study of Mus musculus with 12 samples.

Results

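Type 1 conventional dendritic cells (cDC1s) were sorted from the tumors of WT mice that carried either a plasmid for the growth factor Flt3L (FL) or an empty plasmid (control), and their RNA was compared gene by gene. The comparison rests on 6 of the 12 sequenced libraries, the 3 from WT FL and the 3 from WT control mice, as the sample titles give them. It covers 11255 of the 11264 genes in the deposited table, those with a mean level of at least 1. The other 6 libraries came from *Clec9a*gfp/gfp mice, which lack the receptor DNGR-1, and enter here only through the shared estimate of the spread and through a test of whether the FL effect differed between the genotypes.

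All mice were C57BL/6 or backcrossed to it and were 7 to 10 weeks old. They received the plasmid by hydrodynamic injection, a rapid injection into the circulation that makes the liver secrete the encoded protein, and 1 day later cells of B16F10, a transplantable melanoma line that arose in C57BL/6 mice. Tumors were taken on day 13 and no earlier time was sampled. The level of Flt3L over tumor growth is not part of these data. Each library was made from a separate pool of 2 to 3 mice, sorted as CD24+CD103+CD11b- cells among MHCII+ leukocytes without Ly6C or F4/80. The controls also had the injection, the empty plasmid and the tumor.

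Flt3L acts through Flt3, a receptor tyrosine kinase that dendritic cell progenitors and mature cDC1s carry on their surface. Its signals run through phosphoinositide 3-kinase, mTOR and STAT proteins and drive the expansion of dendritic cells from the bone marrow. cDC1s depend on the transcription factors Irf8 and Batf3 and present antigen from dead cells to CD8+ T cells. When they mature they switch on NF-kappaB targets, costimulatory ligands and IL-12, take up the chemokine receptor CCR7, bundle actin with fascin and travel to the draining lymph node.

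Levels are given as the authors deposited them, in TMM-scaled counts per M, here called CPM. The effective depth behind them was from 14.4 to 17.2 M counts for WT control and from 20.0 to 25.9 M for WT FL libraries. The 10 cDC1 markers chosen for the check, among them *Xcr1*, *Clec9a*, *Irf8* and *Batf3*, were all measured. They summed to 9310, 10300 and 9120 CPM in WT control 1, 2 and 3 and to 9740, 10200 and 10900 CPM in WT FL 1, 2 and 3. Macrophage and monocyte markers, 19 of 25 with values, summed to 1850 to 2550 CPM in control and 1610 to 1920 CPM in FL libraries. The leading gene in that sum was *Lyz2* at 448 to 943 CPM. The 10 of 12 cDC2 markers summed to 103 to 173 CPM in control and 119 to 150 CPM in FL libraries. *Cd5*, with at most 2.04 CPM, was the only 1 of 14 T cell markers with values. Melanoma markers, 9 of 13 with values, summed to 90.7 to 197 CPM in control and 154 to 242 CPM in FL libraries. Plasmacytoid dendritic cell markers, 8 of 11 with values, summed to 426 to 507 CPM in control and 434 to 620 CPM in FL libraries. *Klrk1*, of the NK cell list, was at 341 to 469 CPM in control and 406 to 491 CPM in FL libraries. *Ighm*, of the B cell and plasma cell list, was at 391 to 551 CPM in control and 355 to 464 CPM in FL libraries. The sums of every such list overlapped between the groups, except that of neutrophils and mast cells, whose single measured member was *Kit*. With every library in the fit limma called no other member of the lists of other cell types. Without WT control 2 it called *Csf1r*, *Itgam*, *Spib*, *Col3a1* and *Tyr* higher and *Cd68*, *Mgl2*, *Clec10a* and *Bst2* lower, and with column totals *Itgam* and *Spib* higher. By limma-voom 1 macrophage and monocyte marker was lower, and in that list 1 higher and 2 lower genes had an unadjusted p under 0.05 by limma.

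WT control 2 did not lie with the other controls. On the leading principal component of the 6 WT libraries, which held 43.5% of their variance, WT control 1 and 3 had scores of −40.2 and −46.8. WT control 2 had a score of 9.12, beside the 13.5, 26.7 and 37.7 of WT FL 1, 2 and 3. Whether the label of this pool is right was not tested. Calls without WT control 2 are given below beside those with every library.

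Genes were compared with limma on log2(value + 1), a scale that understates the change of genes with low levels, and were called at a Benjamini-Hochberg adjusted p under 0.1. FL raised 604 genes (5.37% of those tested) and lowered 134 (1.19%). The 3 FL libraries all lay above the 3 controls for 1361 genes (12.1%) and all below for 1219 (10.8%). When the libraries were scaled by their column totals instead, which moved the median log2 fold change of all genes from −0.01 to 0.11, 964 genes were higher and 37 lower. In a fit of only the 6 WT libraries 98 genes were higher and none lower. Of the 91 called genes named by the rule 29 remained called. Apart from a fixed panel, the genes named below were chosen for a small p, a large change or their values. That their groups lie apart follows largely from this choice.

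The calls hung on single libraries, as the plot of calls by left-out library shows. Without WT control 2, 1557 genes were higher (13.8%) and 978 lower (8.69%), among them 600 of the 604 and all 134 called with every library. Counts within lists given below for this fit stand beside these shares. Without WT control 3 and without WT FL 2 limma called 0 genes, with 1367 and 1752 genes at an unadjusted p under 0.05, and limma-voom called 0 in both cases. Without WT FL 3 there were 36 higher genes and none lower, without WT control 1 there were 348 and 25, and without WT FL 1 there were 511 and 92. A call named below was therefore lost without WT control 3 or WT FL 2 in every case, and of the same 91 genes 90 remained called without WT control 2 and 17 without WT FL 3.

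**Figure D1:**
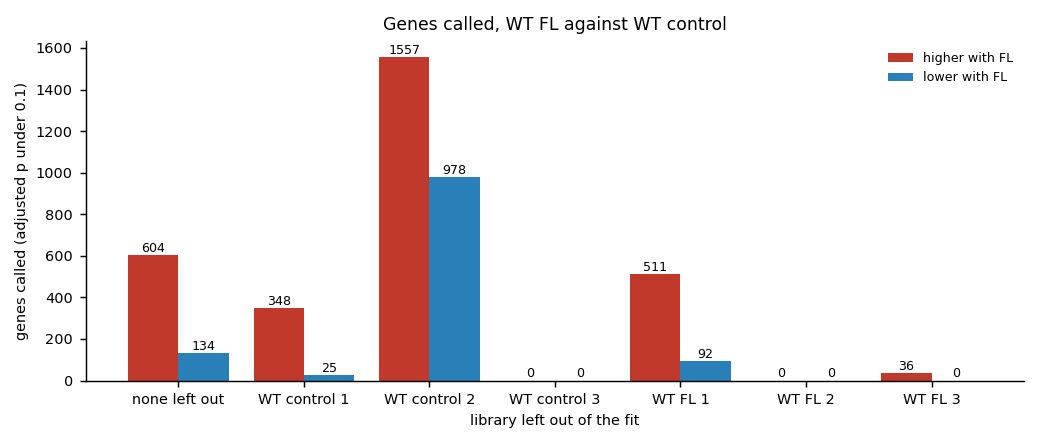
Number of genes called higher (red) and lower (blue) with FL in WT tumor cDC1s at an adjusted p under 0.1, with every library in the fit and with each WT library left out in turn (x axis). The counts fall to 0 without WT control 3 or WT FL 2 and reach 1557 and 978 without WT control 2.

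Gene length moved with the direction of change. The median length of the longest annotated transcript was 4920 bp for the genes that rose, 1790 bp for those that fell and 3280 bp for all genes tested. Across genes, which are not independent replicates, the log2 fold change in WT cDC1s had a Spearman correlation of 0.43 with this length, and 0.42 without WT control 2. In *Clec9a*gfp/gfp cDC1s the same correlation was 0.04. When the genes were split into 4 equal classes by length, the longest class held 344 higher and 5 lower genes and the shortest 11 higher and 80 lower. The median deviation of the longest class minus that of the shortest, on the log2 scale, was −0.20, −0.04 and −0.73 in WT control 1, 2 and 3 and 0.04, 0.43 and 0.44 in WT FL 1, 2 and 3, so that the libraries of each group differed among themselves as well. With a smooth trend on transcript length removed from each library, 115 genes were higher (1.02%) and 48 lower (0.427%), of which 110 and 22 were also called without this step. Of the 91 called genes named by the rule 30 remained called. RNA integrity of the libraries is not given in the sources used here. The part of transcript length in any gene's change was not tested beyond this comparison, which is given below as "with the length trend removed".

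**Figure D2:**
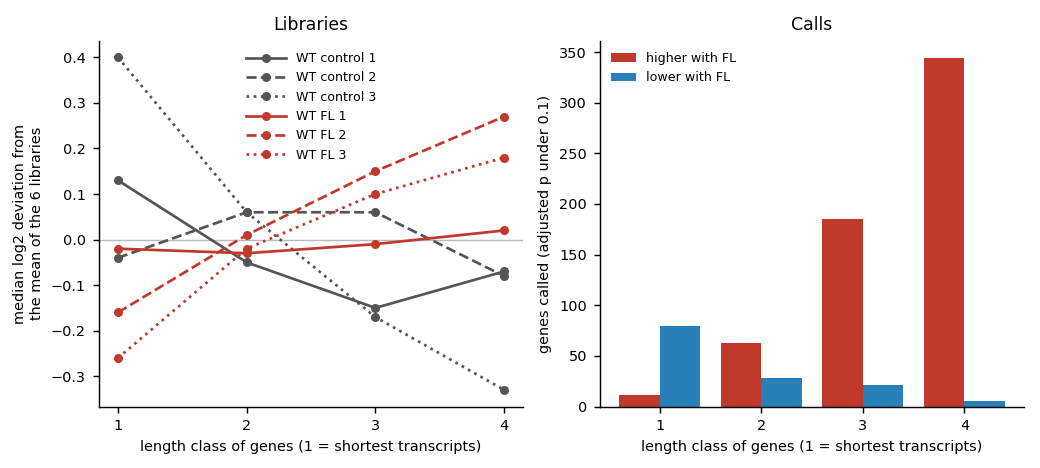
Left, median log2 deviation of each WT library from the mean of the 6, for 4 equal classes of the genes ordered by the length of their longest transcript (1 is the shortest); right, genes called higher (red) and lower (blue) with FL in each class. WT control 3 slopes down and WT FL 2 and 3 slope up, and the higher calls number 11 in the shortest and 344 in the longest class.

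Several genes of a list of Flt3 and GM-CSF signaling rose, while *Flt3* was not called. The list also holds genes of other receptors, among them *Kit* and *Csf2rb*. *Flt3* itself was at 569, 642 and 593 CPM in WT control and 580, 790 and 678 CPM in WT FL 1, 2 and 3. These ranges overlapped, and the log2 fold change was 0.17 (SE 0.17, adjusted p = 0.563 by limma). Of the 42 measured genes of Flt3 and GM-CSF signaling 10 rose and none fell, with a median log2 fold change of 0.48 against −0.01 for all genes tested, and without WT control 2 there were 17 higher and 3 lower. With the length trend removed the median was 0.22, and *Kit* and *Cblb* were the members called.

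*Kit*, which encodes a receptor tyrosine kinase of the same class as Flt3, for stem cell factor, was at 84.3, 182 and 58.9 CPM in WT control 1, 2 and 3. It is a protein-coding gene on chromosome 5 of GRCm38, from 75574916 to 75656722. It was at 237, 312 and 360 CPM in WT FL 1, 2 and 3. All FL libraries were higher, and the highest control was WT control 2. The log2 fold change was 1.62 (SE 0.32, adjusted p = 0.0388 by limma) and 2.07 without WT control 2. *Cblb*, a ubiquitin ligase that restrains signaling from activated receptors, went from 26.5, 52.9 and 34.1 CPM in control to 84.3, 134 and 122 CPM in FL libraries. Its groups did not overlap, with a log2 fold change of 1.59 (with SE 0.28 and adjusted p = 0.0331). *Tsc1*, which encodes a partner in the complex that holds mTORC1 in check, rose by 1.00 (SE 0.23), and its partner *Tsc2* by 1.27 (SE 0.37). The phosphoinositide 3-kinase subunit genes *Pik3cd*, *Pik3r5* and *Pik3r1* rose by 1.13, 0.96 and 0.90, and *Stat5a*, a transcription factor downstream of these receptors, by 0.99. *Csf2rb*, the shared signaling chain of the GM-CSF, IL-3 and IL-5 receptors, rose by 0.79. Its mouse paralog *Csf2rb2* rose by 1.00, and since the pair are close in sequence the division of reads between them is uncertain.

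Receptors for other cytokines and their kinases and STATs rose in a larger share of their list. Of 41 measured genes 14 rose and none fell, with a median of 0.71, and with 0.91 and 22 higher genes without WT control 2. *Il4ra*, the receptor chain for IL-4 and IL-13 (chromosome 7, 125552120 to 125579474), was at 104, 190 and 83.6 CPM in WT control and at 373, 380 and 394 CPM in WT FL libraries. The FL values lay close together and well above every control, and the log2 fold change was 1.68 (SE 0.29, adjusted p = 0.0331 by limma). *Il10ra*, the ligand-binding chain for the inhibitory cytokine IL-10, was at 161, 215 and 108 CPM in control and 297, 304 and 352 CPM in FL libraries. Again no FL library reached down to a control, with a log2 fold change of 1.03 (with SE 0.23 and adjusted p = 0.0473). *Tyk2*, the kinase that several of these receptors share, rose from 159 ± 56.4 to 322 ± 41.0 CPM (SD, n = 3 pools in each group), a log2 fold change of 1.07 (SE 0.26).

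The rest of that list ran through receptor chains and their messengers. *Il2ra*, the high-affinity chain for IL-2, rose by 1.74 but stood at no more than 4.33 CPM in control and 13.5 CPM in FL libraries. *Tnfrsf1b*, a receptor for TNF, rose by 1.37. *Il12rb2*, a chain of the IL-12 receptor, rose by 1.35. *Tgfbr1*, the signaling receptor for TGF-beta, rose by 1.34, and *Il6st*, the shared chain of the IL-6 family, by 1.26. The STAT genes *Stat4*, *Stat6* and *Stat2* rose by 1.56, 0.99 and 0.84 and the kinase gene *Jak3* by 1.06. With the length trend removed the median of the list was 0.51, and *Il4ra*, *Il10ra* and *Il12rb2* were called.

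**Figure D3:**
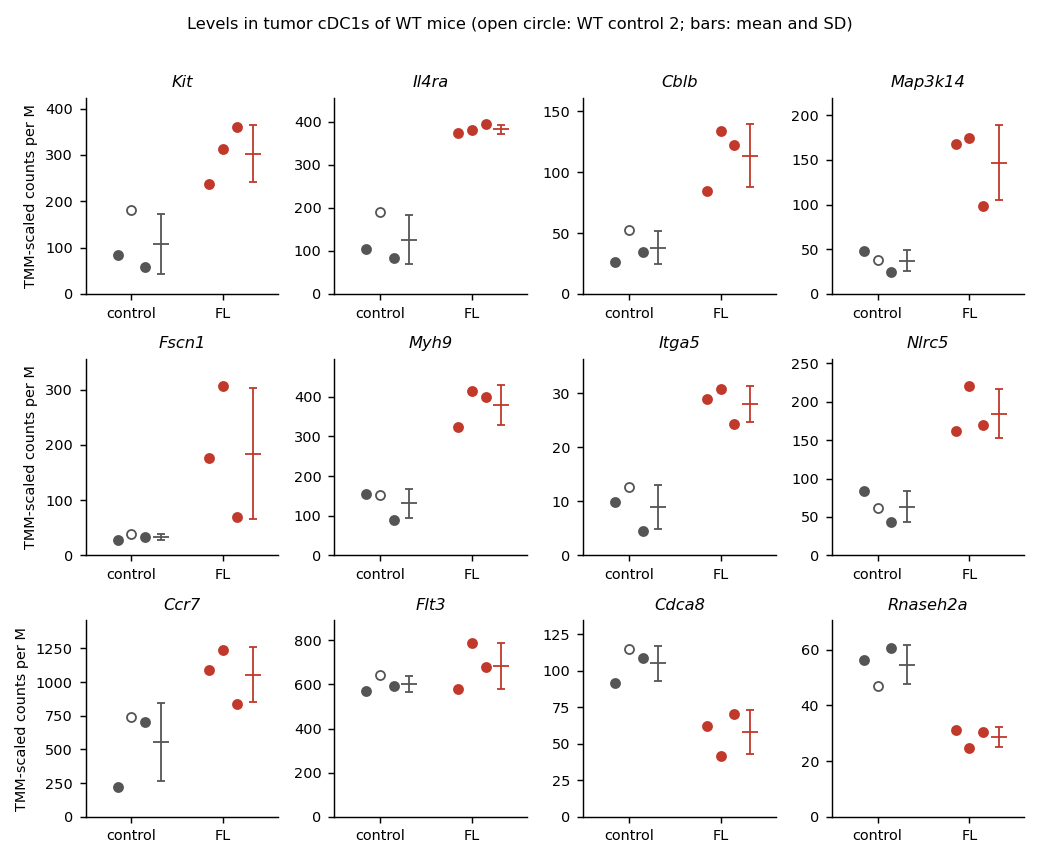
Levels of 12 genes in tumor cDC1s of WT mice in TMM-scaled counts per M, each panel with its own linear axis from 0. Points are libraries 1, 2 and 3 from left to right, grey for control and red for FL, WT control 2 is drawn open, and the bars are the mean and SD of 3 pools. *Kit* and *Il4ra* in WT control 2 lie between the other controls and FL, the ranges of *Flt3* overlap, and *Cdca8* and *Rnaseh2a* lie lower in every FL library.

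Genes of mature and migratory dendritic cells had a median of 0.78 over 59 measured genes. Of them 13 rose, none fell and 55 had a log2 fold change above 0. Their median was 0.88 with 26 higher genes without WT control 2, ranged from 0.45 to 0.99 over the 6 fits that left out a WT library, and was 0.75 with the length trend removed, the list's median transcript being 2700 bp. *Fscn1*, which encodes the actin bundler fascin, was at 27.9, 38 and 32.4 CPM in WT control and 177, 306 and 70.0 CPM in WT FL libraries, so the FL pools varied more among themselves than the controls. Its log2 fold change was 2.23 (SE 0.49, adjusted p = 0.0421 by limma), and it remained called with the length trend removed.

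Among the ligands that a dendritic cell shows to T cells, *Icosl*, the ligand of the costimulatory receptor ICOS, was at 45.3, 62.5 and 38.9 CPM in control and 103, 110 and 104 CPM in FL libraries. The groups did not overlap, and the log2 fold change was 1.12 (SE 0.22, adjusted p = 0.0388 by limma). *Cd274*, which encodes the checkpoint ligand PD-L1, was at 53.3, 128 and 64.5 CPM in control and 217, 209 and 168 CPM in FL libraries, a log2 fold change of 1.36 (with SE 0.35 and adjusted p = 0.0586). *Cd200*, a ligand that inhibits myeloid cells, rose by 1.34 (SE 0.40, adjusted p = 0.0824). These were the 3 called among 26 measured costimulatory and checkpoint ligands (11.5%, against 5.37% of all genes tested), whose median was 0.39. Without WT control 2 there were 5 higher and 1 lower. With the length trend removed *Icosl* was the only member called.

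Other maturation genes that rose included *Cacnb3*, a calcium channel subunit gene, which went from 38.3, 124 and 86.3 CPM in control to 251, 259 and 218 CPM in FL libraries. *Synpo2*, an actin-associated gene, *Arc*, known for its role at synapses, and *Tmcc3* rose by 1.88, 1.79 and 1.75 from lower levels. *Adcy6*, an adenylate cyclase gene, rose by 1.35, and *Eno2*, an enolase gene, by 1.32. *Eno2* stood at 2.01 ± 1.18 CPM in control and 6.12 ± 0.402 CPM in FL libraries. It was not called by limma-voom (adjusted p = 0.121).

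Several of the best-known maturation genes were not called with every library in the fit. *Ccr7* was at 220, 743 and 703 CPM in WT control and 1090, 1240 and 836 CPM in WT FL libraries. Every FL library was higher, but WT control 1 lay far under the other controls and the log2 fold change of 1.10 (SE 0.41) had an adjusted p of 0.142 by limma. *Il12b*, the p40 chain of IL-12, was at 167, 495 and 766 CPM in control and 1040, 1180 and 773 CPM in FL libraries. Its groups nearly touched, with a log2 fold change of 1.30 (with SE 0.49 and adjusted p = 0.148). Both genes were called without WT control 2, at 1.41 and 1.46, and with column totals, at 1.23 and 1.43. *Ccl5*, a chemokine that draws T cells and dendritic cells, had overlapping groups of 46.1, 124 and 171 CPM in control and 205, 217 and 117 CPM in FL libraries (0.80, SE 0.40, adjusted p = 0.254).

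The costimulatory genes *Cd80*, *Cd83*, *Cd70* and *Cd40* had log2 fold changes of 0.54, 0.20, 0.57 and 0.39, with overlapping groups and adjusted p values from 0.281 to 0.701 by limma. *Il15*, a cytokine that sustains CD8+ T cells and NK cells, was at 0.10 and the chemokine gene *Ccl3* at −0.34, both with overlapping groups. The 34 measured cytokines, chemokines and chemokine receptors had a median of 0.10, and 3 of them rose (8.82%, against 5.37% of all genes tested). *Cx3cl1*, which encodes the membrane-bound chemokine fractalkine, went from 4.22, 16.7 and 6.26 CPM to 35.0, 49.2 and 21.2 CPM, a log2 fold change of 1.97 (with SE 0.46 and adjusted p = 0.0473). *Ccr1*, a receptor for inflammatory chemokines, rose by 1.51 from at most 1.31 CPM in control. It was not called by limma-voom (adjusted p = 0.153), nor by limma without WT control 2 (adjusted p = 0.103). *Tgfb1*, the gene of a suppressive cytokine, rose from 31.5 ± 9.19 to 62.7 ± 14.6 CPM (0.99, SE 0.30, adjusted p = 0.0893).

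Subunits and regulators of NF-kappaB, the transcription factor family of maturation, rose in 7 of 38 cases with a median of 0.38, and in 14 cases without WT control 2. *Map3k14* (chromosome 11, 103219762 to 103267472) encodes NIK, the kinase that starts the noncanonical branch. It was at 48.4, 38.2 and 24.9 CPM in control and 168, 175 and 98.3 CPM in FL libraries, with WT FL 3 the lowest of the FL libraries. Its log2 fold change was 1.96 (SE 0.39, adjusted p = 0.0388 by limma), and it was the only member called with the length trend removed. *Nfkb2*, the precursor that NIK acts on, was at 77.5, 120 and 57.3 CPM in control and 182, 198 and 153 CPM in FL libraries (1.11, SE 0.30, adjusted p = 0.0640). *Rel*, the c-Rel subunit, rose by 1.30 (SE 0.31, adjusted p = 0.0479) and *Traf6*, an adaptor of Toll-like receptors and CD40, by 1.17 (SE 0.30, adjusted p = 0.0586). *Tnfaip3*, whose product A20 turns the pathway off, rose by 1.00, the inhibitor gene *Nfkbie* by 0.89 and the kinase gene *Ikbkb* by 0.75.

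The promoters of these genes were searched on both strands for kappaB motifs, the letters GGGNNTTTCC and GGGNNTTCCC, in the 250 bases before the gene start given by RefSeq on GRCm38.p6. Of the 7 higher genes 6 had a promoter in the table, and 3 of these held a motif, against 7 of 27 (25.9%) list members that were not called, 4.13% of 8434 tested genes and 3.25% of all 27025 promoters. The stretches that hold the motifs are shown for the 3 genes, 5′ to 3′ on the gene's strand, since these genes rose. Capitals mark the motif, read on either strand, and matches that overlap are merged into 1 run of capitals. A match is a description of the letters and no evidence of binding.
Nfkb2, chr19:46304686-46304736, plus strand: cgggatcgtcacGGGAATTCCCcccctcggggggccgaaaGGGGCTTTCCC
Rel, chr11:23771039-23771073, minus strand: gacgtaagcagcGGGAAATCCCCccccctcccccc
Tnfaip3, chr10:19015411-19015434, minus strand: ggaatttccatcGGAAATCCCCct

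Most of the genes that define cDC1s were not called with every library in the fit. *Irf8* was at 3090 ± 189 CPM in WT control and 3260 ± 268 CPM in WT FL libraries (SD, n = 3 pools), and *Batf3*, *Xcr1*, *Itgae* and *Clec9a* had log2 fold changes of −0.41, −0.26, 0.51 and 0.05, with adjusted p values from 0.262 to 0.961 by limma. Of 26 measured surface and cross-presentation genes 2 rose (7.69%, against 5.37% of all genes tested), with a median of 0.11. Without WT control 2 *Itgae*, at 0.80, was among 7 that were called higher, and *Cd207* was called lower. *Ly75*, which encodes the endocytic receptor DEC-205, was at 83.2, 137 and 117 CPM in control and 213, 335 and 341 CPM in FL libraries. Its groups did not overlap (1.39, SE 0.27, adjusted p = 0.0388), and it remained called with the length trend removed. *Wdfy4*, needed for cross-presentation of cell-associated antigen, was at 959, 465 and 360 CPM in control, where WT control 1 stood near the FL range of 1170 to 1340 CPM (1.17, SE 0.31, adjusted p = 0.0621).

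Of 15 measured identity transcription factors 2 rose (13.3%, against 5.37% of all genes tested), and none was called with the length trend removed. *Bcl6*, a repressor that cDC1s express, went from 56.8, 60.0 and 35.1 CPM in control to 119, 105 and 94.5 CPM in FL libraries (1.09, SE 0.25, adjusted p = 0.0473 by limma). *Zeb2*, a repressor that opposes the cDC1 fate in progenitors, rose by 1.59, but from a level of 0.900 ± 0.518 to 4.77 ± 1.85 CPM. It was not called by limma-voom (adjusted p = 0.105).

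Among genes of the MHC class II pathway only the transactivator was called with every library in the fit. *Ciita*, which encodes it, was at 519, 416 and 297 CPM in control and 636, 612 and 678 CPM in FL libraries, a log2 fold change of 0.68 (limma, SE 0.20, adjusted p = 0.0804). The median of the 15 measured class II genes was −0.37, with 12 below 0 and none called lower. Without WT control 2 *H2-Aa*, *H2-DMa*, *H2-DMb1*, *Ifi30* and *Rfxap* were called lower and *Ciita* and *Rfx5* higher, and by limma-voom with every library *H2-DMa* and *H2-DMb1* were called lower. *H2-Ab1*, a class II beta chain gene named after its values were seen, was at 25688 ± 2328 CPM in control and 18444 ± 1986 CPM in FL libraries (−0.48, adjusted p = 0.186). These are short genes, with a median transcript of 1670 bp, and with the length trend removed their median was −0.14 and neither *Ciita* nor any other was called.

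For class I the transactivator gene was the 1 call among 26 measured (3.85%, against 5.37% of all genes tested). *Nlrc5* (chromosome 8, 94434356 to 94527272) was at 84.1, 61.2 and 44.0 CPM in control and 162, 221 and 170 CPM in FL libraries. Every FL library was above every control. The log2 fold change was 1.57 (SE 0.26, adjusted p = 0.0325 by limma), and it remained called with the length trend removed, while the list's median was 0.11. The list held 9 higher and 2 lower genes without WT control 2.

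Interferon stimulated genes rose in 5 of 54 cases (9.26%, against 5.37% of all genes tested), with a median of 0.19 and none lower. Without WT control 2 there were 12 higher and 1 lower. With the length trend removed their median was 0.24 and none was called. *Oas3*, an antiviral synthetase gene, went from 4.11, 7.02 and 5.02 CPM to 21.9, 34.2 and 17.7 CPM (1.98, SE 0.46, adjusted p = 0.0473 by limma). *Gbp4*, a guanylate-binding protein gene, and *Parp14*, an ADP-ribosyltransferase gene, rose by 1.44 and 1.06. *Ifih1*, the sensor MDA5 of double-stranded RNA, rose from 14.7 ± 0.511 to 29.5 ± 0.799 CPM (0.96, SE 0.27, adjusted p = 0.0735), and *Tlr12*, which senses profilin of parasites in mice, by 1.03. *Ifih1* and *Tlr12* were the 2 called of 30 measured Toll-like receptors and nucleic acid sensors (6.67%), near the 5.37% of all genes tested. Without WT control 2 there were 7 higher and 2 lower, where 13.8% and 8.69% of all genes tested were. With the length trend removed none of the 30 was called.

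The machinery of shape and movement held 14 higher genes and 1 lower of 73, with a median of 0.22, and 25 and 5 without WT control 2. *Myh9*, the heavy chain of nonmuscle myosin IIA, was at 154, 152 and 89.2 CPM in control and 323, 415 and 400 CPM in FL libraries. The controls, WT control 2 included, stood together under every FL library, with a log2 fold change of 1.55 (limma, SE 0.26, adjusted p = 0.0325). *Myo9b*, an unconventional myosin, rose by 1.15 (SE 0.25). *Flna*, the actin cross-linker filamin A, and *Dock2*, a Rac activator of migrating leukocytes, rose by 1.29 each, and *Arhgdib*, a regulator of small GTPases, fell by 0.79 on the log2 scale. With the length trend removed *Myh9*, *Fscn1* and *Rhoc* were called.

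Integrins and their linkers rose in 4 of 18 cases, with a median of 0.39, and in 7 without WT control 2. *Itga5*, the fibronectin receptor chain, was at 9.82, 12.6 and 4.46 CPM in control and 28.9, 30.8 and 24.3 CPM in FL libraries. Its groups were separate, with a log2 fold change of 1.63 (limma, SE 0.32, adjusted p = 0.0388), and it was the member called with the length trend removed. *Itga4* and *Itgal*, chains of VLA-4 and LFA-1, rose by 0.96 and 1.01, and *Tln1*, which encodes talin, the link from integrins to actin, from 289 ± 36.5 to 554 ± 70.7 CPM (0.94, SE 0.20).

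Autophagy genes rose in 7 of 43 cases with none lower, with a median of 0.14, and without WT control 2 there were 10 higher and 3 lower. *Atg2a*, a lipid transfer protein of the growing autophagosome, had the largest rise of all genes eligible to be named, from 7.95, 13.0 and 3.56 CPM to 41.4, 42.6 and 32.0 CPM (2.25, SE 0.42, adjusted p = 0.0386 by limma). *Ambra1*, an activator of autophagy, went from 19.5, 19.7 and 11.7 CPM to 40.6, 42.6 and 56.8 CPM (1.43, SE 0.25, adjusted p = 0.0331). Both genes remained called with the length trend removed. *Epg5*, which helps autophagosomes fuse with lysosomes, rose by 1.28.

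Lysosomal genes rose in 3 of 43 cases (6.98%), a share near the 5.37% of all genes tested, and without WT control 2 there were 6 higher and 1 lower. *Lgmn*, the asparaginyl endopeptidase that processes antigen, rose from 45.6 ± 13.2 to 108 ± 26.6 CPM (1.23, SE 0.33, adjusted p = 0.0629 by limma) and *Atp6v0a1*, a subunit of the proton pump, by 1.15 (SE 0.26). *Gaa*, the acid glucosidase gene, was called at 0.99 although WT control 2, at 46.1 CPM, stood above WT FL 1, at 38.6 CPM.

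Besides *Atg2a* and *Fscn1*, the 12 largest rises by the rule included *Eps8l2*, an actin regulator gene, at 2.20 and *Adora2a*, which encodes an inhibitory adenosine receptor, at 2.06. *Adora2a* was at 1.84, 5.36 and 3.43 CPM in control and 21.6, 16.0 and 14.0 CPM in FL libraries, both low levels (SE 0.46, adjusted p = 0.0473 by limma). The rule took only genes whose groups did not overlap, so the separation of these 12 genes was fixed by their choice. *Leng8* rose by 2.05, *Npr1*, a natriuretic peptide receptor gene, by 2.00, *Mab21l3* by 1.98, and the noncoding *Peg13* and *Gdap10* by 1.99 and 1.95. *Mab21l3* had little spread in either group, at 13.7 ± 4.06 CPM in control and 55.6 ± 2.62 CPM in FL libraries.

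Chromatin regulators rose in 8 of 67 cases (11.9%), against 5.37% of all genes tested. The longest of the 4 length classes held 344 higher among its 2811 genes. The list's median of 0.36 went to 0.05 with the length trend removed, its median transcript being 7260 bp. Leaving out WT control 2 gave 17 higher and 2 lower, where 13.8% and 8.69% of all genes tested were. *Kdm5c*, a histone H3 lysine demethylase gene, went from 29.6, 27.5 and 19.8 CPM to 78.0, 94.0 and 64.7 CPM (1.59, SE 0.33, adjusted p = 0.0400 by limma), and *Smarcc2*, a subunit of the BAF remodeling complex, rose by 1.23. *Ncoa3*, a nuclear receptor coactivator gene, rose by 1.03. In the Myc network *Mxd1*, an antagonist of Myc, and *Mga*, a repressor that binds Max, rose by 1.38 and 0.83 while none of the other 9 measured members was called. *Apaf1* and *Cflar*, an activator and an inhibitor of caspases, rose by 1.06 and 0.81. They were the 2 called of 28 measured Bcl2 family and caspase genes (7.14%), whose median was −0.08. With the length trend removed no gene of the Myc network or of the Bcl2 family and caspase list was called.

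Glycolysis genes rose in 2 of 29 cases (6.90%), again near the share of all genes, and in 8 without WT control 2. *Pfkfb3*, which makes an allosteric activator of glycolysis, rose from 111 ± 31.4 to 234 ± 38.5 CPM (1.10, SE 0.28, adjusted p = 0.0582 by limma), and the other called gene was *Eno2*. *Fdps*, an enzyme of cholesterol synthesis, fell by 0.78 on the log2 scale. With the length trend removed *Pfkfb3*, *Eno2* and *Fdps* were not called.

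Genes of cell division were among those that fell. Of 89 measured G2 and M phase genes 10 (11.2%) fell against 1.19% of all genes tested, and 1, *Espl1*, rose. The median was −0.38, with 73 genes below 0, was −0.30 without WT control 2 and −0.44 with the length trend removed, and ranged from −0.51 to −0.30 over the fits that left out a WT library. In these sorted pools, fewer dividing cells and less of these transcripts per cell cannot be told apart. With column totals 2 fell, and without WT control 2 there were 5 higher and 21 lower. With the length trend removed 3 were called lower, *Cdca8*, *Cdk1* and *Bub3*, while *Ube2c* and *Ccna2* were no longer called.

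*Ube2c*, the ubiquitin-conjugating enzyme of the anaphase-promoting complex, was at 165, 182 and 221 CPM in control and 127, 77.8 and 91.9 CPM in FL libraries (−0.95, SE 0.24, adjusted p = 0.0560 by limma). *Cdca8*, a subunit of the chromosomal passenger complex (chromosome 4, 124918465 to 124939311), was at 91.6, 115 and 109 CPM in control and 62.1, 41.4 and 70.7 CPM in FL libraries (−0.88, SE 0.24, adjusted p = 0.0648). *Ccna2*, which encodes cyclin A2, went from 127, 92.9 and 152 CPM to 55.0, 78.6 and 58.0 CPM (−0.94, SE 0.28, adjusted p = 0.0812). For these genes every FL library lay under every control, WT control 2 being the lowest control for *Ccna2* only. *Cenph*, a centromere gene, had a log2 fold change of −1.02, and *Cdc20*, the activator of the anaphase-promoting complex, and *Ccnb2*, which encodes cyclin B2, had −0.74 and −0.79.

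Of 79 measured genes of DNA replication and S phase 4 fell and none rose, with a median of −0.15. There were 8 higher and 11 lower without WT control 2, where 13.8% and 8.69% of all genes tested were. With column totals there were 3 higher and 1 lower. *Rnaseh2a*, the catalytic subunit that removes RNA from DNA, went from 56.4, 46.9 and 60.5 CPM to 31.1, 24.6 and 30.3 CPM (−0.91, SE 0.21, adjusted p = 0.0473 by limma), with separate groups, and remained called with the length trend removed. *E2f1*, a transcription factor of S phase entry, and *Asf1b*, a histone chaperone gene, had log2 fold changes of −0.89 and −0.68.

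Promoters of G2 and M phase genes are known for a CCAAT box and a cell cycle homology region (CHR), so the same 250 bases were searched on both strands for CCAAT and for TTTGAA. Of the 10 genes that fell 8 had a promoter in the table, and 6 of these (75.0%) held both motifs, against 16 of 63 (25.4%) list members that were not called, 5.16% of tested genes and 6.45% of all promoters. CCAAT, with or without TTTGAA, was in all 8 and in 41.2% of tested genes, and TTTGAA, with or without CCAAT, in 13.3% of tested genes. The stretches of 3 of the 6 genes, chosen after the search, are shown as examples of promoters that hold both, with the motifs in capitals, CCAAT reading as ATTGG where it lies on the other strand, and TTTGAA likewise as TTCAAA.
Cdc20, chr4:118437344-118437408, minus strand: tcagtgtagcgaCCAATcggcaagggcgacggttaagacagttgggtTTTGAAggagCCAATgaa
Ube2c, chr2:164769689-164769917, plus strand: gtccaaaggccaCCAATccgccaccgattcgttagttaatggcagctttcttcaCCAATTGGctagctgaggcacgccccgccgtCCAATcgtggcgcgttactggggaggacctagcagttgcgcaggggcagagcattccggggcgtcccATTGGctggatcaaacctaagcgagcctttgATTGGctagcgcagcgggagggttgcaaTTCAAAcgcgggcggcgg
Ccnb2, chr9:70421559-70421733, minus strand: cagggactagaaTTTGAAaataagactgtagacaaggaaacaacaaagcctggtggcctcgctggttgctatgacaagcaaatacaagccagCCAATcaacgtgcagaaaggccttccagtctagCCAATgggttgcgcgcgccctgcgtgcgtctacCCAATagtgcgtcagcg

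Genes of the ribosome, the respiratory chain and the proteasome were lower as lists, and their values moved with transcript length. All 81 measured cytosolic ribosomal protein genes had a log2 fold change below 0, with a median of −0.48, 7 of them called lower, and a median transcript of 1060 bp. All 78 mitochondrial ribosomal protein genes were below 0 as well (median −0.47), with 1 called lower (1.28%, near the 1.19% of all genes tested), and of 77 nuclear genes of oxidative phosphorylation 12 were called lower (median −0.48). Of 31 proteasome subunit genes 5 were called lower (median −0.45). Without WT control 2 these lists held 44, 35, 35 and 17 lower genes, where 8.69% of all genes tested were lower. With the length trend removed their medians were −0.18, −0.29, −0.17 and −0.22 and none of their genes was called, and with column totals 0, 0, 3 and 2 were.

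*Psmb4*, a subunit of the proteasome core, was at 281, 243 and 387 CPM in control and 188, 145 and 162 CPM in FL libraries (−0.86, SE 0.21, adjusted p = 0.0516 by limma). *Ndufs3*, a subunit of respiratory complex I, was at 97.0, 86.7 and 130 CPM in control and 70.0, 52.3 and 63.9 CPM in FL libraries (−0.73, SE 0.20, adjusted p = 0.0674). *Uqcrc1*, a subunit of complex III, had a log2 fold change of −0.62, and the ribosomal *Rpl8*, *Rpl10* and *Rps2* had −0.75, −0.75 and −0.70. In each of these genes WT control 3 or WT control 1 was the highest library and every FL library was below the controls. Genes for building ribosomes moved in both directions, with *Nol6*, *Rrp12* and *Heatr1* higher by 1.56, 1.25 and 1.25 and *Emg1* and *Nop58* at −0.71 and −0.67. That list, of 80 measured genes, held 8 higher and 10 lower without WT control 2, where 13.8% and 8.69% of all genes tested were. With column totals it held 5 higher and none lower.

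**Figure D4:**
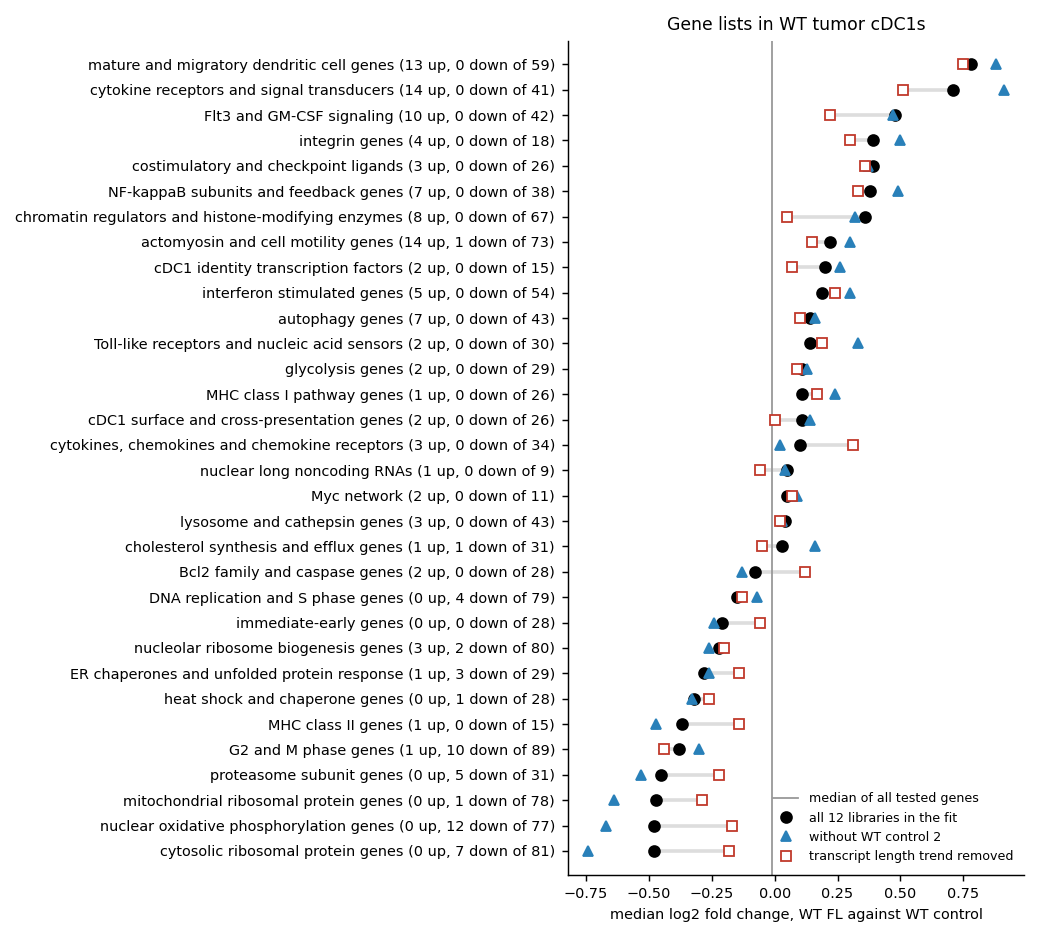
Median log2 fold change, WT FL against WT control, of 32 gene lists with all libraries in the fit (black circles), without WT control 2 (blue triangles) and with the length trend removed (open red squares); the vertical line is the median of all tested genes, and labels give the genes called up and down of those measured. Mature dendritic cell genes stay near 0.75 to 0.88 in all 3, whereas the ribosomal, oxidative phosphorylation and proteasome lists move from near −0.48 to between −0.17 and −0.29 when the length trend is removed.

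Chaperones of the endoplasmic reticulum fell in 3 of 29 cases and 1 rose. With column totals *Hyou1*, *Atf6*, *Sel1l* and *Ern1* were higher and none was lower, and without WT control 2 there were 6 higher and 4 lower. With the length trend removed none of the 29 was called. *Creld2*, *Sdf2l1* and *Manf*, which respond to unfolded proteins, had log2 fold changes of −0.72, −0.70 and −0.67, and *Hyou1* one of 0.92. *Hsp90aa1*, the inducible HSP90 gene, was the 1 of 28 heat shock genes that fell, from 552 ± 108 to 365 ± 6.66 CPM (−0.57, SE 0.18, adjusted p = 0.0893 by limma). Immediate-early genes, which the handling of cells can switch on, had a median of −0.21 and gave no call among 28 measured by limma, where 1 higher and 3 lower genes had an unadjusted p under 0.05, and 1 lower gene by limma-voom. Leaving out WT control 2 gave 4 lower immediate-early and 6 lower heat shock genes.

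The largest falls by the rule were uneven between controls. *Mir6240*, annotated as a microRNA locus on chromosome 5, was at 27.7, 11.0 and 17.3 CPM in control and 6.67, 7.08 and 5.28 CPM in FL libraries (−1.34, SE 0.31, adjusted p = 0.0473 by limma). *Lars2*, the mitochondrial leucyl-tRNA synthetase gene, was at 13900, 3830 and 9000 CPM in control and 3100, 3650 and 3100 CPM in FL libraries (−1.26, SE 0.34, adjusted p = 0.0651). Whether the reads counted for *Mir6240* and *Lars2* all came from these genes was not tested. For both genes WT control 2 stood near the FL libraries and WT control 1 was the highest. *Zfp36l2*, which encodes a protein that promotes mRNA decay, likewise went from 178, 61.1 and 78.4 CPM to 54.6, 51.7 and 27.2 CPM (−1.14, SE 0.35, adjusted p = 0.0893).

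Other falls were even among the controls. *Tmem254c* was at 27.0, 26.9 and 28.8 CPM in control and 15.4, 10.9 and 13.8 CPM in FL libraries, and fell by 1.00 on the log2 scale (SE 0.27, adjusted p = 0.0680 by limma). *Otof*, the otoferlin gene, was at 7.95, 7.84 and 6.47 CPM in control and 2.15, 3.81 and 2.08 CPM in FL libraries (−1.22, SE 0.31, adjusted p = 0.0516). *Cyp8b1*, an enzyme of bile acid synthesis in the liver, had a log2 fold change of −1.06, *Xlr* of −1.07, *Efcab11* of −1.03 and *Adssl1*, a gene of purine synthesis, of −0.98. *Slc15a4*, a lysosomal transporter needed for endosomal Toll-like receptor signaling, had −1.01.

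Whether the FL effect in WT cDC1s differed from that in *Clec9a*gfp/gfp cDC1s was asked by the interaction of FL and genotype. By limma and by limma-voom it made 0 calls, with 1027 genes at an unadjusted p under 0.05 by limma. Without WT control 2 it called 22 by limma and 1 by limma-voom. Of the 738 genes called in WT cDC1s 655 had the same sign in *Clec9a*gfp/gfp cDC1s. The share with the same sign over all genes was not computed. In 212 of the 738 the interaction had an unadjusted p under 0.05 by limma, against 1027 of all 11255 tested genes. The 738 were called on the WT change, which is also a part of the interaction. *Kit* had a log2 fold change of 0.35 in *Clec9a*gfp/gfp cDC1s against 1.62 in WT, *Itga5* of 0.27 against 1.63 and *Icosl* of 0.18 against 1.12. The adjusted p of these differences was 0.457, 0.455 and 0.455 by limma. In the other direction *Il15* was at 1.13 against 0.10 in WT (adjusted p = 0.455), *Cd70* at 2.21 against 0.57 (adjusted p = 0.458) and *Ccl5* at 2.13 against 0.80 (adjusted p = 0.523). None of these differences passed the threshold, which does not show that the effects were alike.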

How the data were processed

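Polyadenylated RNA of the sorted cells was turned into cDNA with a SMARTer kit and into libraries with Nextera XT, which do not record strand, and sequenced in single reads of 61 bases. According to the submitters' processing notes and the paper's methods, the authors used CASAVA 1.8.2, cutadapt 1.3, which dropped reads under 30 bases, and RSEM 1.2.3 on the GRCm38.91 transcriptome, and deposited a table of signal values, TMM-scaled counts per M. Every deposited value, times 1 factor per library, came to a whole count and 0.5 with a tolerance of 0.02, and this factor was taken as the effective depth. The rule by which the authors filtered low genes is not given in the sources used here.

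Levels were taken to log2(value + 1), with a pseudocount of 1, and genes with a mean of at least 1 over the 12 libraries went into a linear model (limma 3.58.1, R 4.3.3) with moderation along the mean level and 1 mean per group over all 4 groups of 3. P values were adjusted over all tested genes. The scripts were tested on simulated data. The libraries were separate pools, and samples of 1 group differed by more than counting noise.

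Members and lists were chosen with earlier results of these data known, so counts within a list are descriptions. The 41 lists, 9 of them markers of other cell types, were described by counts and medians. Genes named were the 12 largest rises and falls among called genes with a mean of at least 5 and groups that did not overlap, without predicted genes, the 3 called genes of lowest p in each list, and 15 genes of a fixed panel. Further list members are named by their fold change after their values were seen, as were those printed with promoters. Transcript lengths came from GENCODE M21 on GRCm38, which held 11242 of the tested genes. The length trend was a lowess, span 0.3, of each gene's deviation on the log2 length of its longest transcript, removed per library. Promoters came from the RefSeq table of GRCm38.p6. Alternatives covered the pseudocount, filter, scaling, limma-voom, the libraries in the fit, sample weights, the replicate block and each library left out.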

Additional observations from a re-analysis of the deposited data

How the results depend on the processing

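Counts of higher and lower genes are given as pairs. They were 964 and 37 with column totals, 98 and 0 in a fit of only the 6 WT libraries, and 400 and 39 with sample quality weights. Chosen after seeing the data, weights in the WT fit gave 197 and 1, removal of the length trend 115 and 48, and its removal without WT control 2 881 and 753, with 1 gene called for the interaction. A fit of only the WT libraries has fewer degrees of freedom for the spread. Leaving out 1 library of the 12 in turn gave from 0 to 1557 higher and from 0 to 978 lower genes by limma, and from 0 to 1407 and from 0 to 1179 by limma-voom over the WT libraries (81 and 4 without WT control 1, 21 higher without WT FL 3), with 0 to 22 and 0 to 1 genes for the interaction. Without *Clec9a*gfp/gfp FL 1 there were 385 and 39, and without *Clec9a*gfp/gfp FL 2 there were 394 and 42. Without *Clec9a*gfp/gfp control 2 and 3 there were 486 and 57, and 495 and 78. The pseudocounts, filters, upper-quartile scaling and limma-voom with every library kept both counts within 1.5 times. None of the 91 called genes named by the rule changed sign under the 32 alternatives, which follows largely from their choice as called genes and is no measure of their stability. *Flt3*, *Irf8*, *Clec9a* and *Ccl3*, which were not called, did change sign.

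The correlation of deviations between WT control and WT FL libraries of the same number was 0.17, −0.20 and −0.15. Between libraries of different numbers it ran from −0.30 to 0.45, so the numbers gave no sign of pairing. The paper describes independent experiments, and the sample titles do not say which libraries shared one. Pairing by experiment was therefore not tested. With the replicate block 589 genes were higher and 96 lower, of which 537 and 87 were also called without it. In the WT libraries alone the block gave 53 and 1.

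With 3 pools a group, and WT control libraries of 14.4 to 17.2 M counts, genes under about 1 CPM rest on few counts. The cause of the dependence on WT control 2, WT control 3 and WT FL 2 was not tested.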
